A study of Mus musculus with 6 samples.

Results

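Pkm, the gene of the muscle and brain form of pyruvate kinase, was examined together with 6 RNA-binding proteins known for the choice between its M1 and M2 exons or related to such proteins: Ptbp1, Ptbp2, Ptbp3, Hnrnpa1, Hnrnpa2b1 and Srsf3. The members were taken by gene symbol, which gave 7 of the 24459 genes in the deposited gene table and 72 of the 75457 isoforms in the isoform table. Of the 72 isoforms, 20 were new, that is, without an identifier in the reference annotation. All 7 genes and 44 of the 72 isoforms passed the filter on low counts.

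The tissue was taken from around the blood clot in the brain on day 5 after an experimental intracerebral haemorrhage. The 3 libraries T1, T2 and T3 came from mice given TEPP-46 and the 3 libraries C1, C2 and C4 from mice given vehicle, in each case daily over 5 days from the bleed on. All mice are labelled WT and all had the haemorrhage, so there is no group without a bleed; strain, sex and age are not stated. The libraries were nanopore cDNA-PCR libraries of total RNA, which read long cDNA molecules. Whether each library stands for an animal of its own is not stated, and a p-value here reflects only how far these libraries vary, which may be technical.

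Pyruvate kinase makes pyruvate in the last step of glycolysis. Its gene includes either the M1 exon, which gives the constantly active enzyme of muscle and neurons, or the M2 exon, which gives an allosterically regulated enzyme found in glia, immune cells and dividing cells. PTBP1, hnRNPA1 and hnRNPA2B1 bind beside the M1 exon and repress it, SRSF3 favours the M2 exon, and the compound TEPP-46 activates the M2 enzyme by holding its tetramer together.

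The exons at the centre of that choice are shown first, because Pkm-201 carries the M2 exon and Pkm-202 the M1 exon. These transcripts also differ at their ends. The first exon has 282 bases in Pkm-201 and 77 in Pkm-202, and the last exon 648 and 462. How far the ends of a read decided which transcript it was counted for was not tested. The M1 and M2 exons are both 167 bases long, on the plus strand and in the coding part of the gene (GRCm38). The M2 exon lies at chr9:59675568-59675734 and the M1 exon upstream of it at chr9:59675029-59675195. Capitals mark the bases that differ between the exons at the same position. The sequences were read from the GENCODE M21 transcripts.
Pkm M2 exon: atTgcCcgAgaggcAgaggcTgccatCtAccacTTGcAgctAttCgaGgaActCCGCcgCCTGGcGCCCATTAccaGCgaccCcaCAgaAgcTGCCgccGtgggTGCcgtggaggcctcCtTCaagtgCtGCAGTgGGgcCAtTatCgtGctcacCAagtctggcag
Pkm M1 exon: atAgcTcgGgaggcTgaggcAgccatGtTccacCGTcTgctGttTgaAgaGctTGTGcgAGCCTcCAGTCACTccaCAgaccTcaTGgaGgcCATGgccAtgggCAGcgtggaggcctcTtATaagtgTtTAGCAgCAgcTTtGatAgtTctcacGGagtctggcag
They share 103 of 167 positions (61.7%) and differ at 64, spread over the whole exon, so a long read that spans the exon carries many bases that tell the forms apart.

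**Figure D1:**
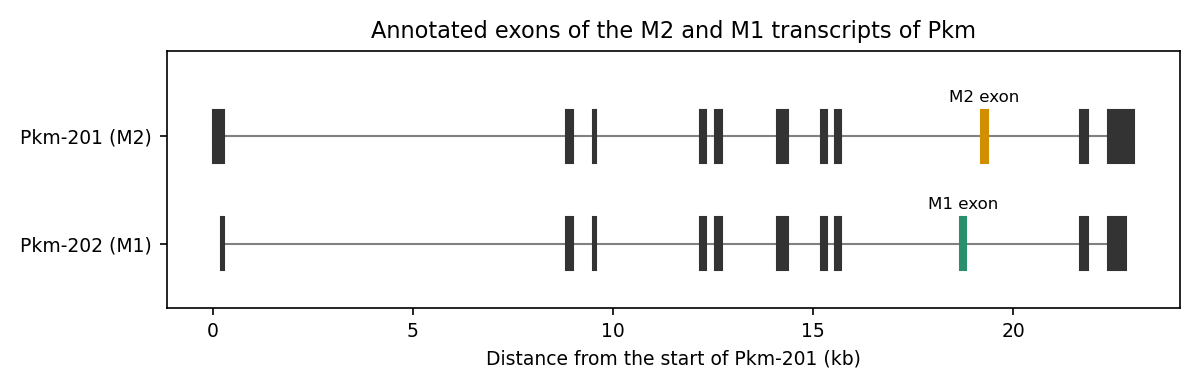
Annotated exons of Pkm-201 (M2, upper row) and Pkm-202 (M1, lower row) as boxes, drawn to scale as distance in kb from the start of Pkm-201. Each transcript has 11 exons, and the coloured boxes are the M2 and M1 exons of 167 bases, of which each transcript holds 1.

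Pkm itself (chromosome 9, 59656368 to 59679375, plus strand) was at 2558, 2643 and 2257 CPM (raw counts scaled to an equal library total) in T1, T2 and T3, against 2286, 2213 and 2253 CPM in C1, C2 and C4. T1 and T2 were above all vehicle libraries, while T3 lay between C4 and C1, so the groups overlapped. The log2 fold change of TEPP-46 over vehicle was 0.13 with an SE of 0.10, and the Benjamini-Hochberg adjusted p of the quasi-likelihood test in edgeR was 0.973. Of 14441 genes tested, 0 were called at an adjusted p under 0.05 (0%), none of the 7 members among them, and 856 (5.93%) had an unadjusted p under 0.05. DESeq2 called 85 genes (0.553%), again with no member among them. In bulk tissue, more or fewer cells of a type and more or less RNA per cell cannot be told apart.

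The groups had similar M1 and M2 counts in the annotated isoforms. Pkm-201, the full-length M2 transcript, had 1826, 1878 and 1513 counts in T1, T2 and T3, against 1456, 1674 and 1349 in C1, C2 and C4. Pkm-202, the full-length M1 transcript, had 270, 261 and 177 counts in T1, T2 and T3, against 218, 170 and 169 in C1, C2 and C4. Both were thus highest in T1 and T2 and both groups overlapped. The M2 share, Pkm-201 over the sum of both, was 87.1, 87.8 and 89.5% in T1, T2 and T3, against 87.0, 90.8 and 88.9% in C1, C2 and C4. The lowest and the highest share both came from vehicle, C1 and C2, and the TEPP-46 shares lay inside that span (exact two-sided permutation p = 0.7, where 0.1 is the smallest value that 3 against 3 can give). Counting error alone gave exact binomial 95% intervals of 85.6 to 88.5% in T1 and 89.4 to 92.1% in C2. Without C2 the difference between the groups, TEPP-46 minus vehicle, changed sign to 0.226 percentage points.

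Most Pkm counts were in the 6 new isoforms, ONT.12611.1 to ONT.12611.6, and not in the annotated ones. The new isoforms took 86.3, 85.3 and 85.6% of Pkm counts in T1, T2 and T3, against 86.0, 85.1 and 87.1% in C1, C2 and C4 (exact two-sided permutation p = 0.7). The difference between the groups changed sign to 0.158 percentage points without C4. The largest, ONT.12611.2, had 3734, 3374 and 2897 counts in T1, T2 and T3, against 3090, 3027 and 2927 in C1, C2 and C4. It held between 22.7 and 25.3% of Pkm counts in every library, more than Pkm-201 and Pkm-202 together, which held between 12.7 and 14.6%. ONT.12611.3 and ONT.12611.4 each took between 13.5 and 14.7% of Pkm counts, and ONT.12611.6 between 11.0 and 12.4%.

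ONT.12611.5 was the only Pkm isoform of the 8 that were tested whose shares did not overlap between the groups. It took 10.2, 10.6 and 10.1% of Pkm counts in T1, T2 and T3, against 9.98, 9.82 and 9.66% in C1, C2 and C4. The means were 10.3% in TEPP-46 and 9.82% in vehicle (exact two-sided permutation p = 0.1, the smallest possible, and 0.927 after adjustment over the 51 named isoforms of all 7 genes). Among those 51 isoforms the shares of 5 did not overlap between groups, beside 11.6% of 30032 isoforms in the whole table. In counts, ONT.12611.5 had a log2 fold change of 0.18 with an SE of 0.12 (edgeR adjusted p = 0.986).

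All 8 tested Pkm isoforms had a positive log2 fold change, from 0.06 for ONT.12611.2 to 0.25 for Pkm-202, and none was called (lowest edgeR adjusted p = 0.986). Of the 33854 isoforms tested in the whole table, 0 were called (0%) and 1954 (5.77%) had an unadjusted p under 0.05, 635 (1.88%) of them higher and 1319 (3.9%) lower in TEPP-46. DESeq2 called 148 isoforms (0.419%), with none of the 45 isoforms of the 7 genes that had a DESeq2 adjusted p among them. The other 7 Pkm isoforms, Pkm-204 and Pkm-206 to Pkm-211, are annotated partial transcripts of 356 to 1017 bases. They had 0 to 8 counts in any library and did not pass the filter. Their summed counts were 19, 45 and 39 in T1, T2 and T3, against 30, 40 and 14 in C1, C2 and C4.

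**Figure D2:**
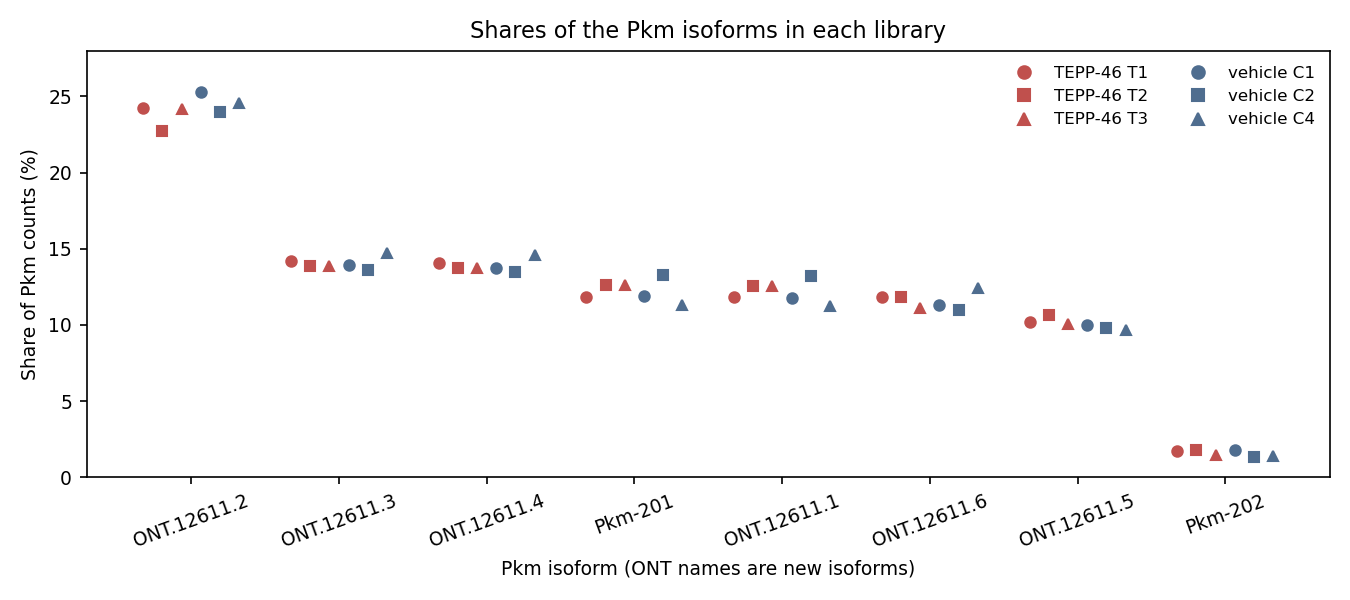
Share of Pkm counts (y axis, percent) of the 8 Pkm isoforms with a mean count of 10 or more, ordered by size; each point is 1 library, red for TEPP-46 and blue for vehicle. ONT.12611.2 lies between 22.7 and 25.3% in all 6 libraries and Pkm-202, the M1 transcript, between 1.35 and 1.79%.

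The new isoforms were not independent of the annotated ones. ONT.12611.1 had 1821, 1866 and 1507 counts in T1, T2 and T3, against 1438, 1663 and 1335 in C1, C2 and C4, within 5 to 18 counts of Pkm-201 in each library. Independent counts of this size would differ with a Poisson SD of 51.8 to 61.2. ONT.12611.3 and ONT.12611.4 were as close, with differences of 14 to 24 counts beside a Poisson SD of 57.5 to 66.0. Of the 28 pairs among the 8 larger Pkm isoforms, these 2 were within 1 Poisson SD in all 6 libraries. Whether a read was counted for both isoforms of such a pair or divided between them was not tested, and since the gene count equalled the sum of the isoform counts, the Pkm gene count may hold a read more than once.

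Relative to Pkm-201, the groups overlapped for each of the other 5 new isoforms. ONT.12611.3 had 120, 110 and 110 counts per 100 of Pkm-201 in T1, T2 and T3, against 117, 103 and 130 in C1, C2 and C4. ONT.12611.6 had 99.7, 93.4 and 88.0 per 100 of Pkm-201 in T1, T2 and T3, against 94.6, 82.9 and 110 in C1, C2 and C4. For both, C4 was highest and C2 lowest, so the vehicle libraries spanned all TEPP-46 libraries. ONT.12611.5 had 85.8, 84.1 and 79.6 per 100 of Pkm-201 in T1, T2 and T3, against 83.7, 74.0 and 85.3 in C1, C2 and C4. ONT.12611.1 alone had groups that did not overlap, at 99.7, 99.4 and 99.6 per 100 of Pkm-201 in T1, T2 and T3, against 98.8, 99.3 and 99.0 in C1, C2 and C4 (exact two-sided permutation p = 0.1, the smallest possible and not adjusted). This gap rests on the 5 to 18 counts by which the 2 isoforms differ. Such ratios were not compared over the whole table, where 11.6% of single isoform shares did not overlap between groups. The protein annotation in the authors' deposited table gives the same best match, a rat protein without a pyruvate kinase name, to ONT.12611.1 through ONT.12611.5, and a gerbil PKM isoform to ONT.12611.6. Which of the new isoforms hold the M1 or the M2 exon was not analysed here, so the M2 share covers only the annotated transcripts.

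Of the regulators, Ptbp1 was the member with the largest difference. Ptbp1 (chromosome 10, 79854427 to 79864771, plus strand) encodes the polypyrimidine tract binding protein that represses the M1 exon and many other neuronal exons, and it is switched off as neurons mature. It was at 85.6, 95.2 and 72.7 CPM in T1, T2 and T3, against 56.2, 76.3 and 43.3 CPM in C1, C2 and C4. All TEPP-46 libraries were above C1 and C4, but T3 was below C2, so the groups overlapped. TEPP-46 libraries averaged 84.5 ± 11.3 CPM, against 58.6 ± 16.6 CPM in vehicle libraries (SD, n = 3 each). The log2 fold change was 0.51, with an SE of 0.21. The unadjusted p was 0.0379 and the edgeR adjusted p 0.805, so Ptbp1 was not called, and 271 genes (1.88%) were higher in TEPP-46 at an unadjusted p under 0.05. The authors' deposited table gives Ptbp1 a log2 fold change of 0.40 and a p of 0.0329. Leaving out C2 gave a log2 fold change of 0.76 (edgeR adjusted p = 0.176) and leaving out C4 gave 0.34 (edgeR adjusted p = 1.00).

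Summed markers of several cell types shared part of the library order of Ptbp1. The summed level of 6 astrocyte markers (Aqp4, Gfap, Slc1a3, Slc1a2, Aldh1l1 and Gja1) was 2352, 2576 and 2268 CPM in T1, T2 and T3, against 2005, 2356 and 1709 CPM in C1, C2 and C4. As for Ptbp1, T2 was highest in this sum and C1 and C4 lowest, and the groups overlapped because of C2. None of the 6 markers was called, although all 6 had a positive log2 fold change. Slc1a2 made up most of the sum, at 1881, 1968 and 1516 CPM in T1, T2 and T3, against 1518, 1500 and 1405 CPM in C1, C2 and C4. Gfap, Aqp4, Gja1, Slc1a3 and Aldh1l1 were each highest in C2, so the place of T2 in the sum came from Slc1a2. The summed level of 8 markers of activated microglia and macrophages (Spp1, Gpnmb, Lgals3, Cd68, Lyz2, Itgax, Cst7 and Trem2) was 612, 2101 and 2950 CPM in T1, T2 and T3, against 346, 5042 and 184 CPM in C1, C2 and C4. C2, the highest vehicle library in Ptbp1, was the highest of all in these markers, and C4, the lowest in Ptbp1, was also the lowest in the markers. The TEPP-46 libraries did not follow this order, since T3 had more of the markers than T1 and less Ptbp1. Of the 8 markers, 0 were called, 1 (Itgax) was at 0 in some library, and the summed levels of the groups overlapped. Summed markers of homeostatic microglia and of red blood cells were likewise highest in C2 and lowest in C4. C4 also had the lowest summed level of 6 oligodendrocyte markers, 5333 CPM, beside 13083 to 15257 CPM in the other 5 libraries. The part of cell composition in the Ptbp1 difference was not tested.

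Each Ptbp1 isoform with enough counts was higher on average in TEPP-46. ENSMUST00000095457 of Ensembl, the shortest of the 3 in coding length (1467 bases), had 122, 129 and 96 counts in T1, T2 and T3, against 65, 100 and 46 in C1, C2 and C4. Its log2 fold change of 0.64 (SE 0.24, unadjusted p = 0.0214, edgeR adjusted p = 0.763) was the largest among the 44 tested isoforms of the 7 genes and the only one with an unadjusted p under 0.05. Its share of Ptbp1 counts was 23.6, 24.1 and 24.9% in T1, T2 and T3, against 21.7, 23.0 and 20.1% in C1, C2 and C4, without overlap. The share of Ptbp1-216, the largest isoform, went the other way: 37.4, 37.0 and 38.1% in T1, T2 and T3, against 40.7, 39.5 and 42.4% in C1, C2 and C4, also without overlap. For both shares the exact two-sided permutation p was 0.1 and the p adjusted over 51 isoforms 0.927.

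**Figure D3:**
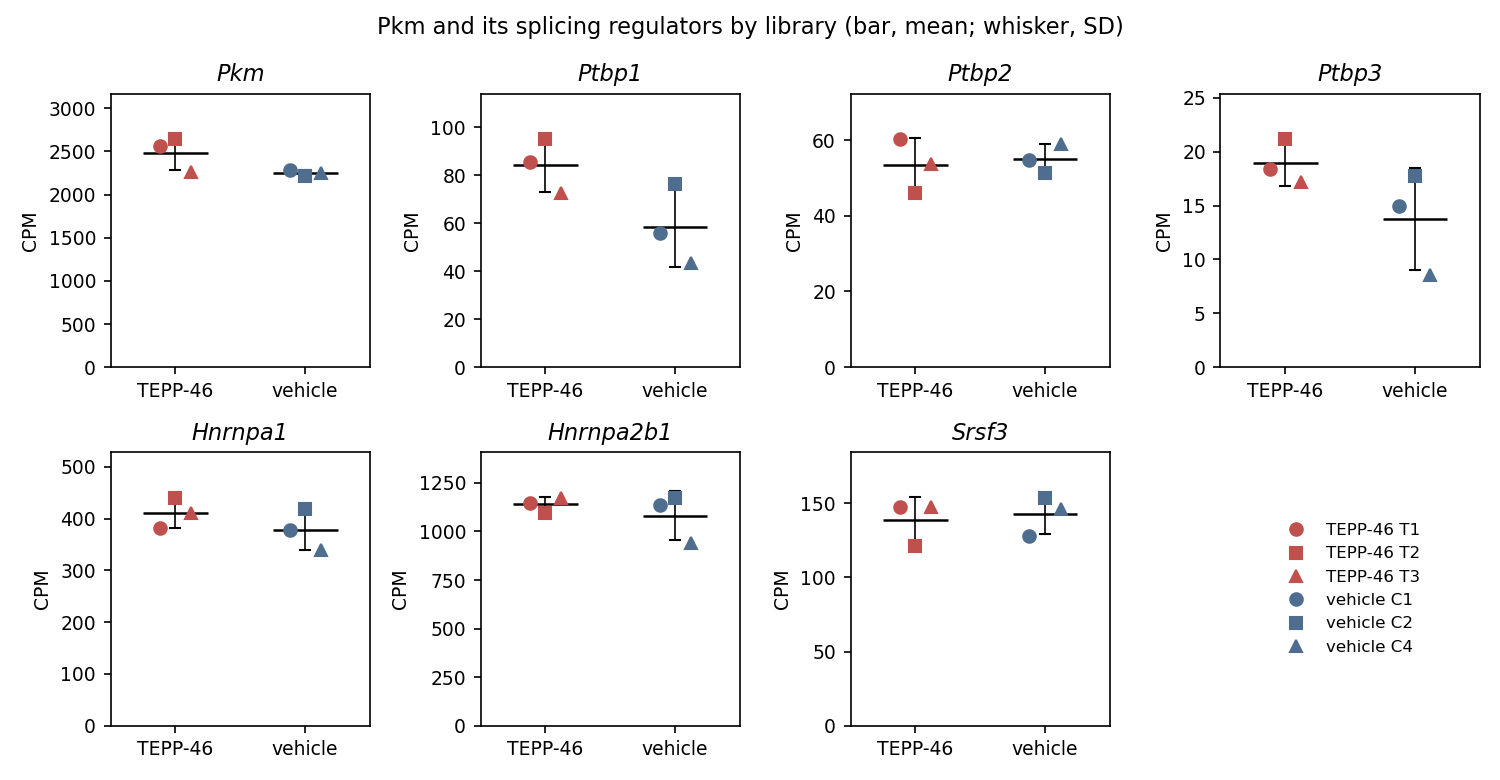
CPM of the 7 genes in each library (points), with the group mean as a bar and the SD as a whisker (n = 3 each), TEPP-46 in red and vehicle in blue, each panel with its own axis from 0. Ptbp1 lies between 72.7 and 95.2 CPM in TEPP-46 and between 43.3 and 76.3 CPM in vehicle, and no gene has groups without overlap.

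PTB proteins also control their own messenger RNAs, which makes a short exon of Ptbp1 and Ptbp2 informative. In human cells PTBP1 skips such an exon in its own transcript and in that of PTBP2, and the frameshift sends the transcript to nonsense-mediated decay, the pathway that destroys messages with a premature stop. The mouse exons are both 34 bases long, at chr10:79862014-79862047 on the plus strand (Ptbp1) and at chr3:119724612-119724645 on the minus strand (Ptbp2), in GRCm38. They are shown as GENCODE M21 gives them, 5′ to 3′ in the sense of the transcript, with capitals for the bases that differ between the genes.
Ptbp1 34-base exon: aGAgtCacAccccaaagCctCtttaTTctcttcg
Ptbp2 34-base exon: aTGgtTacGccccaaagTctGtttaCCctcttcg
The exons are identical at 26 of 34 positions and differ at 8.

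Ptbp1 counts that skip the 34-base exon, those of ENSMUST00000057343 and Ptbp1-207, were few. They were 21, 18 and 13 counts in T1, T2 and T3, against 9, 10 and 3 in C1, C2 and C4. As a share of the annotated Ptbp1 counts that span the exon, they were 4.12, 3.39 and 3.38% in T1, T2 and T3, against 3.02, 2.30 and 1.31% in C1, C2 and C4. The groups did not overlap (exact two-sided permutation p = 0.1, adjusted p = 0.4 over the 8 alternative exons compared). The exact binomial 95% intervals of T1, 2.57 to 6.23%, and of C4, 0.271 to 3.78%, do overlap, so the counts behind the shares are too few to set single libraries apart.

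A second alternative exon of Ptbp1, 78 bases long (chromosome 10, 79860117 to 79860194), lies in the linker between RNA-binding domains, and its skipping is known to weaken repression by PTBP1. It was included in 39.4, 38.2 and 39.5% of the annotated counts in T1, T2 and T3, against 42.3, 40.5 and 42.8% in C1, C2 and C4. All TEPP-46 shares were below all vehicle shares (exact two-sided permutation p = 0.1, adjusted p = 0.4). Only Ptbp1-216 and Ptbp1-207 hold the exon. Ptbp1-207 had 8, 5 and 5 counts in T1, T2 and T3, against 4, 4 and 1 in C1, C2 and C4. Nearly all counts with the exon were thus those of Ptbp1-216. The exon share therefore largely repeats the lower Ptbp1-216 share given above and is not a separate result. Of the 8 alternative exons, these 2 of Ptbp1 were the ones whose groups did not overlap, beside 11.6% of single isoform shares in the whole table, where alternative exons were not compared, and the intervals of every library in them overlapped those of the other group.

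Ptbp2 (chromosome 3, 119718742 to 119784466, minus strand) encodes the paralogue that takes over from PTBP1 in neurons and is a weaker repressor. It was at 60.2, 46.1 and 53.7 CPM in T1, T2 and T3, against 54.7, 51.2 and 59.0 CPM in C1, C2 and C4. The TEPP-46 libraries spanned the vehicle libraries, with a log2 fold change of -0.06 (SE 0.15, edgeR adjusted p = 0.997) that changed sign to 0.03 without T2. Its isoforms ENSMUST00000029780 and Ptbp2-213 held nearly all counts and differed by 0 to 1 counts in every library. Skipping of the 34-base exon of Ptbp2 was seen in 5, 4 and 2 counts in T1, T2 and T3, against 4, 0 and 1 counts in C1, C2 and C4. That is 1.39, 1.57 and 0.712% in TEPP-46, against 1.39, 0 and 0.326% in vehicle (exact two-sided permutation p = 0.3), where the exact binomial 95% interval of C2 reaches 1.29%. ENSMUST00000029780 and Ptbp2-213 both enter the totals behind these shares, so a read may be counted more than once there. The shares may then be too low and the intervals too narrow.

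Set against each other, Ptbp2 took 41.3, 32.6 and 42.5% of the summed Ptbp1 and Ptbp2 counts in T1, T2 and T3, against 49.3, 40.2 and 57.7% in C1, C2 and C4. C1 and C4 were above all TEPP-46 libraries and C2 was below T1 and T3. TEPP-46 libraries averaged 38.8 ± 5.38%, against 49.1 ± 8.76% in vehicle libraries (n = 3 each, ± SD; exact permutation p = 0.3, two-sided). The difference, TEPP-46 minus vehicle, was -10.3 percentage points, and -5.95 without C4. With the largest isoform of each gene in place of the gene count, the means were 44.9% in TEPP-46 and 53.5% in vehicle. The summed level of 6 neuronal markers, was 3638, 2883 and 2546 CPM in T1, T2 and T3, against 3116, 2328 and 3053 CPM in C1, C2 and C4. C2 had the lowest neuronal markers and the lowest Ptbp2 share of its group, but T3, with the lowest neuronal markers of its group, had the highest share there, and C1 had more of the markers than C4 and a lower share. The part of neuron content in the share was not tested.

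**Figure D4:**
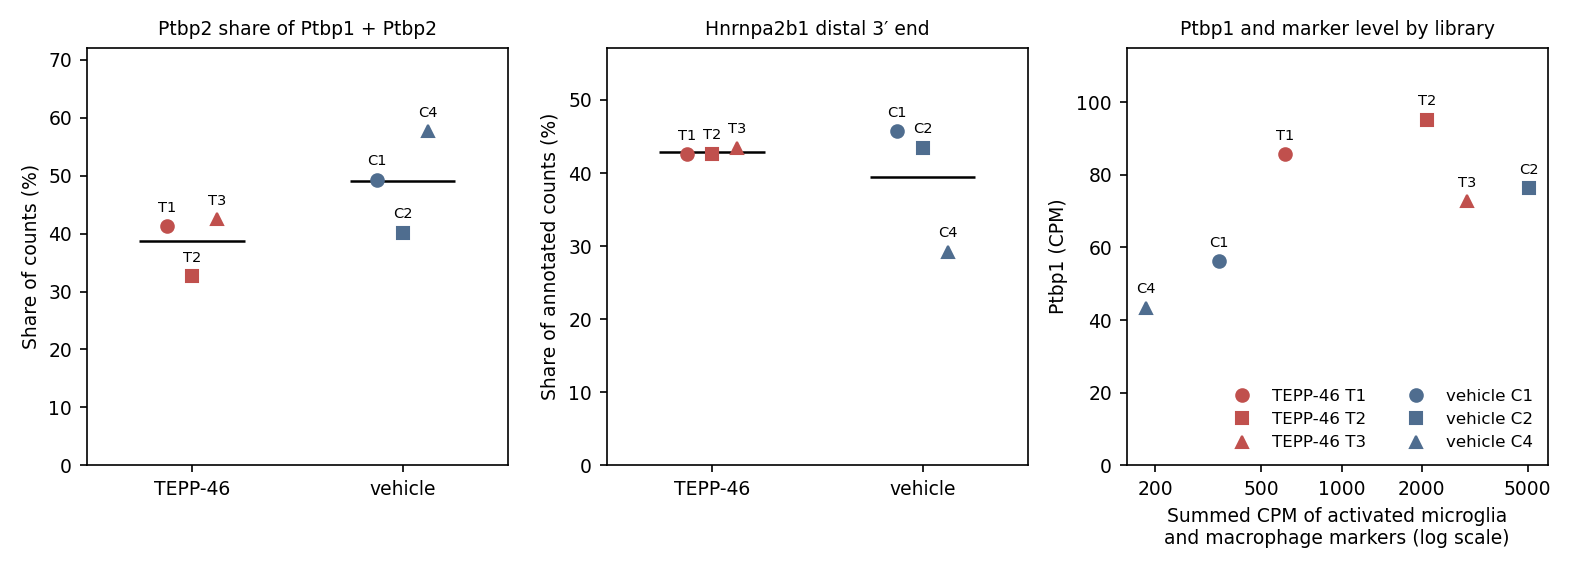
Left, Ptbp2 share of the summed Ptbp1 and Ptbp2 counts; middle, share of the distal 3′ end among annotated Hnrnpa2b1 counts; right, Ptbp1 CPM against the summed CPM of 8 activated microglia and macrophage markers on a log axis. Points are libraries, TEPP-46 in red and vehicle in blue, and bars are group means. The Ptbp2 share runs from 32.6 to 42.5% in TEPP-46 and from 40.2 to 57.7% in vehicle, the distal end of Hnrnpa2b1 is at 29.2% in C4 only, and C4 and C2 are the lowest and highest libraries in the markers.

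Ptbp3 (chromosome 4, 59471868 to 59549364, minus strand) encodes the third paralogue, known from blood cells. It had few counts, 111, 119 and 91 in T1, T2 and T3, against 80, 101 and 45 in C1, C2 and C4. As CPM this was 18.4, 21.2 and 17.1 in T1, T2 and T3, against 15.0, 17.7 and 8.51 in C1, C2 and C4. The order of the libraries resembled that of Ptbp1, with C4 lowest and T2 highest, and the groups overlapped because T3 was below C2. The log2 fold change was 0.45 (SE 0.27, edgeR adjusted p = 0.936), 0.20 without C4 and 0.68 without C2. Its largest isoform, ENSMUST00000030076, held between 34.2 and 44.0% of the counts.

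Hnrnpa1 (chromosome 15, 103240432 to 103246692, plus strand) encodes a heterogeneous nuclear ribonucleoprotein that binds beside the M1 exon of Pkm and blocks it. It was at 382, 441 and 410 CPM in T1, T2 and T3, against 378, 419 and 339 CPM in C1, C2 and C4. C2 lay above T1 and T3, and the log2 fold change was 0.10 (SE 0.12, edgeR adjusted p = 0.987). All 11 isoforms were tested, 6 of them new, with log2 fold changes from 0.03 to 0.34, all positive and none called. An alternative exon of 159 bases (chromosome 15, 103242922 to 103243080) separates the long A1B form, with a coding length of 1119 bases, from the A1 form, with 960 bases. It was included in 57.9, 56.5 and 58.1% of the annotated counts in T1, T2 and T3, against 57.2, 59.4 and 57.1% in C1, C2 and C4 (exact two-sided permutation p = 0.8). Those annotated counts were 1552 of 2299 Hnrnpa1 counts in T1 and 1241 of 1793 in C4. Transcripts annotated for nonsense-mediated decay were on both sides. Hnrnpa1-204 gave 353 of the 898 counts with the exon in T1, and Hnrnpa1-203 is among the isoforms without it. The share is therefore not one of A1B against A1 protein. The exons of the 6 new isoforms were not analysed here.

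The long transcript ENSMUST00000036004 had a lower share of Hnrnpa1 counts in TEPP-46, 23.7, 23.0 and 23.4% in T1, T2 and T3, against 24.2, 24.8 and 23.9% in C1, C2 and C4. The new isoform ONT.4281.7 had a higher one, 3.78, 4.28 and 3.91% in T1, T2 and T3, against 3.57, 3.35 and 3.29% in C1, C2 and C4. Neither pair of groups overlapped, with the exact permutation p of 0.1 for both and 0.927 after adjustment. These are the last of the 5 shares without overlap named above. ONT.4281.1 and ENSMUST00000087351 differed by 0 to 5 counts in every library, so this gene too has isoforms whose counts are not independent. Hnrnpa1 has processed pseudogenes with near-identical sequence, and how reads that match several copies were counted is not given in the sources used here.

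Hnrnpa2b1 (chromosome 6, 51460932 to 51469894, minus strand) encodes hnRNPA2 and hnRNPB1, which act on the M1 exon with hnRNPA1. It was at 1147, 1098 and 1174 CPM in T1, T2 and T3, against 1135, 1170 and 940 CPM in C1, C2 and C4. C4 was the lowest library and the other 5 lay within 1098 to 1174 CPM. The log2 fold change was 0.06 (SE 0.12, edgeR adjusted p = 0.997) and changed sign, to -0.03, without C4.

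hnRNPB1 differs from hnRNPA2 by a 36-base exon near the start of the coding sequence, shown here because it is the whole difference between these proteins (chr6:51467391-51467426, minus strand, GRCm38, from the GENCODE M21 transcripts; no base is in capitals).
Hnrnpa2b1 36-base exon: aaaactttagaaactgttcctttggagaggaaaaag
The exon was included in 45.9, 43.5 and 46.1% of the annotated counts in T1, T2 and T3, against 46.4, 45.9 and 48.1% in C1, C2 and C4 (exact two-sided permutation p = 0.2). A 120-base exon further on (chromosome 6, 51464428 to 51464547) was included in 75.2, 73.4 and 75.1% in T1, T2 and T3, against 75.5, 75.1 and 78.8% in C1, C2 and C4 (exact two-sided permutation p = 0.2). In both exons T2 was lowest and C4 highest, and the groups overlapped. The annotated isoforms that span these exons held only 2771 of 6909 Hnrnpa2b1 counts in T1 and 1955 of 4969 in C4. Which exons the 7 new isoforms hold was not analysed here, so these shares do not cover the whole gene.

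Among the annotated Hnrnpa2b1 transcripts, those with 1 of the annotated 3′ ends were low in C4. Of the annotated isoforms with 10 or more counts on average, 4 end at the distal site, in a last exon from 51460932 to 51461433, and 3 at a proximal site, in a last exon from 51462760 to 51463254 (chromosome 6). Isoforms with the distal end summed to 196, 194 and 208 CPM in T1, T2 and T3, against 206, 208 and 108 CPM in C1, C2 and C4. Isoforms with the proximal end summed to 264, 261 and 271 CPM in T1, T2 and T3, against 244, 270 and 262 CPM in C1, C2 and C4. The distal share was thus 42.5, 42.6 and 43.4% in T1, T2 and T3, against 45.7, 43.5 and 29.2% in C1, C2 and C4. C4 stood apart and the other 5 libraries did not separate by group (exact two-sided permutation p = 1). The new isoforms ONT.10456.1 and ONT.10456.3 were low in the same library, at 136 and 123 counts in C4, beside 274 to 304 and 255 to 288 counts in the other 5. Of the 7 new isoforms, whose 3′ ends were not analysed here, all but ONT.10456.10 were at their lowest CPM in C4. Some were lowest by little, such as ONT.10456.5 at 150 CPM in C4 and 152 CPM in T2. The part of the distal end in the low gene count of C4 was not tested. This choice of ends was looked at after the values were seen.

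Srsf3 (chromosome 17, 29032628 to 29043373, plus strand) encodes the smallest SR protein, which promotes inclusion of the M2 exon. It was at 148, 121 and 147 CPM in T1, T2 and T3, against 128, 154 and 146 CPM in C1, C2 and C4. T2 was the lowest and C2 the highest library, with a log2 fold change of -0.06 (SE 0.13, edgeR adjusted p = 0.997) that changed sign when either was left out, to 0.03 without T2 and 0.01 without C2.

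SRSF3 is known to limit its own level through a poison exon, whose inclusion brings an early stop codon. In the mouse this exon is 456 bases long (chromosome 17, 29039454 to 29039909), and ENSMUST00000037776 holds it. Its first 34 bases, up to and including the stop codon in capitals, are printed because they hold the feature that ends translation (chr17:29039454-29039487, plus strand, GRCm38, GENCODE M21).
Srsf3 start of the poison exon: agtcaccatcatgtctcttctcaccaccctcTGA
The poison exon was in 118 of 790, 77 of 605 and 101 of 672 counts in T1, T2 and T3, against 76 of 605, 108 of 761 and 101 of 684 in C1, C2 and C4. These are shares of 14.9, 12.7 and 15.0% in TEPP-46, against 12.6, 14.2 and 14.8% in vehicle (exact two-sided permutation p = 0.5). The totals hold only ENSMUST00000037776 and ENSMUST00000130216. They leave out the new isoform ONT.5126.2, which held between 8.99 and 11.3% of Srsf3 counts. Whether ONT.5126.2 holds the poison exon was not analysed here, so the shares do not cover the whole gene. The coding isoform ENSMUST00000130216 held between 73.0 and 77.5% of the counts in every library.

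**Figure D5:**
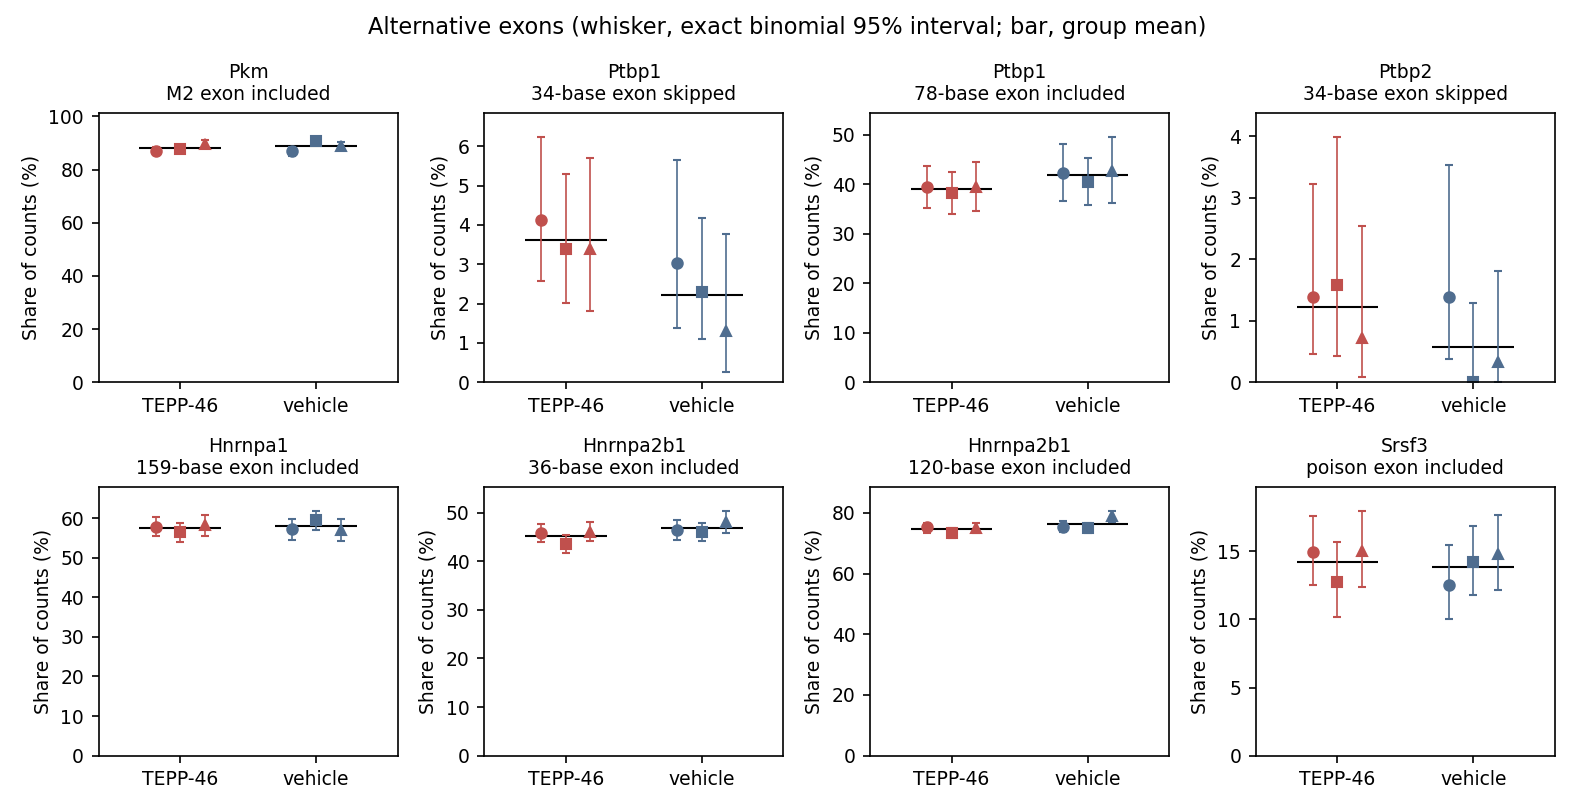
Share of counts (percent) of the 8 alternative exons in each library, as inclusion or skipping as each panel says; points are libraries (circle, square and triangle are T1, T2 and T3 or C1, C2 and C4), whiskers exact binomial 95% intervals and bars group means. The groups are apart only for the Ptbp1 exons, at 3.38 to 4.12% skipped in TEPP-46 and 1.31 to 3.02% in vehicle, and at 38.2 to 39.5% included in TEPP-46 and 40.5 to 42.8% in vehicle.

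The proportions of isoforms within each gene were also tested over the whole table with edgeR's diffSpliceDGE. None of the 7 genes was called, with unadjusted p from 0.869 for Hnrnpa2b1 to 0.985 for Ptbp2. This test called 1 of 7639 genes (0.0131%), and 49 (0.641%) had an unadjusted p under 0.05, fewer than the threshold alone would give. The isoform counts of a gene are not independent, and how that acts on the test was not tested. Across the 7 genes, 35 of 44 tested isoforms had a positive log2 fold change, in a range of -0.14 to 0.64, and 1 had an unadjusted p under 0.05 beside 5.77% of all isoforms. The 44 are not separate observations, since isoforms of a gene move together, as in Pkm (8 of 8 positive) and Hnrnpa1 (11 of 11). The median log2 fold change over all tested isoforms was 0.007, and their share above 0 was not worked out.

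Other factors around the M1 and M2 choice were also not called, in any of the 6 lists examined. Of 9 further regulators and PTB partners, 8 were tested, 4 had a positive log2 fold change and 1 had an unadjusted p under 0.05. That was Khdrbs1, the signal-regulated splicing factor Sam68, at 14.9, 20.1 and 18.8 CPM in T1, T2 and T3, against 36.0, 27.5 and 59.2 CPM in C1, C2 and C4. Its groups did not overlap, which held for 11.4% of all genes tested, and 4.05% of genes were lower in TEPP-46 at an unadjusted p under 0.05. Its log2 fold change was -1.20 (SE 0.28, unadjusted p = 0.00202, edgeR adjusted p = 0.391). Srsf2, which like SRSF3 is an SR protein, was second in that list, with a log2 fold change of -0.73 (edgeR adjusted p = 0.897).

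Of 10 other SR proteins tested, 3 had a positive log2 fold change, the median was -0.10 beside 0.01 over all genes, and 2 had an unadjusted p under 0.05. Srsf11 was at 53.2 ± 11.9 CPM in TEPP-46, against 77.6 ± 6.52 CPM in vehicle, and Srsf12 at 6.31 ± 0.0924 CPM in TEPP-46, against 9.34 ± 1.15 CPM in vehicle (n = 3 each, ± SD; edgeR adjusted p = 0.657 and 0.781). Of 10 nonsense-mediated decay factors, which set how much of a transcript with a premature stop is left, 7 had a positive log2 fold change. Upf3a had the smallest p in that list, at 56.2 ± 10.9 CPM in TEPP-46, against 84.0 ± 10.6 CPM in vehicle (n = 3 each, ± SD; log2 fold change -0.59, edgeR adjusted p = 0.618). Its paralogue Upf3b was second, with a log2 fold change of 0.30 (edgeR adjusted p = 0.941).

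Of 14 neuronal splicing regulators, 10 were positive in log2 fold change and the median was 0.14. The smallest p in that list were those of Elavl2 and Rbfox2, with log2 fold changes of 0.34 and 0.26 (edgeR adjusted p = 0.882 and 0.884). Of 5 further hnRNP A/B and D genes, 2 were positive, and Hnrnpab and Hnrnpa0 had the smallest p, with log2 fold changes of -0.37 and -0.21 (edgeR adjusted p = 0.973 and 0.985). Of 10 genes next to the pyruvate kinase step, 9 were tested and 4 were positive, with Mpc2, a subunit of the mitochondrial pyruvate carrier, at -0.17 and the muscle enolase Eno3 at 0.24 (edgeR adjusted p = 0.973 and 0.997). Pklr, the liver and red cell pyruvate kinase, had 0 counts in all 6 libraries.

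Over the 6 libraries, the genes whose log2 CPM followed Pkm most closely among 6129 genes with a mean of 20 CPM or more were Gapvd1, Xiap and Rnf40, with Pearson r of 0.992, 0.980 and 0.975. For Ptbp1 they were Zbtb8os, Sfr1 and Mtus1, with r of 0.989, 0.987 and 0.979. These values describe 6 libraries that share their depth and tissue content, and were picked as the highest among many.

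The libraries had totals of 5286426 to 6025064 counts. The tissue markers fitted brain, with the summed neuronal markers between 2328 and 3638 CPM in all libraries. The libraries differed in tissue content within groups: 5 choroid plexus markers summed to 3197, 1805 and 3210 CPM in T1, T2 and T3, against 4102, 5.09 and 16.8 CPM in C1, C2 and C4.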

How the data were processed

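Long-read cDNA libraries of 3 TEPP-46 and 3 vehicle samples were analysed from 2 tables of raw counts, 1 of genes and 1 of isoforms, deposited by the authors. A further 12 columns of library values were left out. Where a p-value or log2 fold change of the authors is quoted, the authors' deposited table is named; per the file headers it came from DESeq2. The submitters' processing notes give GRCm38 as the build and list DESeq 1.10.1. For the aligner, and for reads that match more than 1 isoform, the method is not given in the sources used here. Columns were tied to groups by their letter (T or C), and their numbers do not match the numbered samples.

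CPM is the raw count over the library total of the gene table, for genes and isoforms alike. The whole gene and isoform tables were fitted in R 4.3.3 by edgeR 4.0.16 (filterByExpr, TMM, robust quasi-likelihood F test, group only), and called at a Benjamini-Hochberg adjusted p under 0.05. DESeq2 1.42.0 was an alternative. Isoform usage was tested with diffSpliceDGE and Simes p-values. Shares per library were compared with exact two-sided permutation tests (scipy 1.17.1). Intervals at 95% are exact binomial intervals that cover counting error only and take each count as a separate read. The fits were tested on simulated data.

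Named are the 7 member genes, every Pkm isoform, other isoforms with a mean count of 10 or more, and in each list the called genes or, with none, the 2 smallest unadjusted p. Alternative exons and transcript ends come from the GENCODE M21 annotation. The members, lists, exons and tests were chosen with earlier results of these data known. Alternatives were another scaling, DESeq2, no low-count filter, pooled counts and leaving out each library.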

Additional observations from a re-analysis of the deposited data

How the results depend on the processing

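No member gene was called under any alternative run, nor any of the 8 Pkm and 3 Ptbp1 isoforms that passed the filter on low counts. The smaller isoforms of these genes were not examined in the fit without that filter. Of 400 alternative values for 45 results, 375 were classed as the same as the main result. For fold changes this means the same direction and call. For shares and exons it means direction only, for isoform usage the call only, and for counts of calls the count. The count of genes called, 0, was 85 with DESeq2 and 0 to 43 when 1 library was left out. The count of isoforms called, 0, was 148 with DESeq2, 165 without a low-count filter and 0 to 178 when 1 library was left out; the highest counts came without C2. The cause was not tested. With the largest isoform in place of the gene count, an alternative added after seeing the data, the log2 fold change of Hnrnpa2b1 was -0.0186. Leaving out 1 library at a time, log2 fold changes ran from -0.151 to 0.0342 for Ptbp2, -0.0286 to 0.131 for Hnrnpa2b1, -0.131 to 0.0287 for Srsf3, 0.34 to 0.76 for Ptbp1 and 0.20 to 0.68 for Ptbp3. Differences in percentage points, TEPP-46 minus vehicle, ran from -1.68 to 0.226 for the M2 share, -0.876 to 0.158 for the new Pkm isoforms and -14.7 to -5.95 for the Ptbp2 share. They ran from -0.160 to 0.825 for the share of ONT.12611.1 in Pkm, -0.333 to 0.206 for ONT.12611.3, -0.321 to 0.235 for ONT.12611.4, -0.272 to 0.437 for ONT.12611.6 and -0.223 to 0.747 for Pkm-201. They ran from -0.822 to 0.360 for the 159-base exon of Hnrnpa1 and -0.248 to 1.14 for the poison exon of Srsf3, both added after seeing the data. For the 2 Ptbp1 exons, also added after seeing the data, they ran from 0.969 to 1.82 for skipping of the 34-base exon. For inclusion of the 78-base exon they ran from -3.50 to -2.33. The groups of both exons did not overlap, so leaving out a library could not change the direction. No paired analysis was possible because the column numbers do not match the sample numbers. The alternatives for single isoforms of the other 5 genes were not run, except DESeq2. Skipping of the short exons rests on 0 to 21 counts in a library.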
